A study of Mus musculus with 10 samples.

Results

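The 8 genes described here are Lcn2, 2 receptor genes of its protein lipocalin 2 (Slc22a17 and Lrp2), Bdh2, which encodes the enzyme named in the making of the mammalian siderophore, and 4 further lipocalin genes (Apod, Orm1, Ptgds and Rbp4). They were taken by name, with every probe set that carries only that gene. Each of the 8 had 1 such probe set, so 8 of the 21789 single-gene probe sets, and 8 of the 19938 genes they stand for, are the subject. RNA of mouse bone marrow neutrophils (C57bl/6, female, 10 weeks of age per the labels) was hybridised to 10 Affymetrix Mouse Gene ST arrays in 4 groups. Each genotype, wild type and lcn2 knockout, was measured without stimulation on 3 arrays and after fMLP on 2. fMLP, a formylated peptide that attracts and activates neutrophils, was added at 10 micromolar, and these cells were held at 37 degrees for 20 minutes. All cells came from tibia and femur marrow, were freed of red cells by lysis and were enriched on a Percoll density gradient, so other marrow cells of like density can be present. The labels name neither the knockout allele nor the exons it lacks, do not say whether replicates were separate animals, and do not say whether unstimulated cells were also warmed. The p values therefore measure the spread between these arrays, which may be technical. The question asked of the data is whether other lipocalins, the lipocalin 2 receptors or the siderophore enzyme gene differ when Lcn2 is absent.

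Lipocalins are small secreted proteins whose barrel-shaped fold holds a small lipophilic ligand. Lipocalin 2, stored in the secondary (specific) granules of neutrophils, binds iron carried by siderophores, the chelators with which bacteria take up iron, and so keeps that iron from them. Slc22a17 encodes a cell surface receptor for lipocalin 2, and Lrp2 encodes megalin, a large endocytic receptor of kidney and other epithelia that takes up lipocalin 2, retinol-binding protein and many other ligands. Bdh2 encodes a cytosolic dehydrogenase described as a maker of an endogenous siderophore that lipocalin 2 can bind. Orm1 encodes the acute-phase plasma protein orosomucoid 1, Rbp4 the retinol carrier of blood, Ptgds the lipocalin-type prostaglandin D synthase, and Apod apolipoprotein D.

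The 250 bases before the RefSeq start sites (build GRCm38.p6) of the ligand, its receptor Slc22a17 and the siderophore enzyme gene are shown, since these are the genes the question turns on and since Lcn2 is known to be driven by C/EBP and NF-kB factors. Each is read 5′ to 3′ on the gene's own strand, ending at the base before the start. Capitals mark matches, on either strand, to 6 motifs: the TATA box (TATAAA), the CCAAT box (CCAAT), and letter patterns for C/EBP (TTGCNNAA), NF-kB (GGGNNNNNCC), STAT (TTCNNNGAA) and Sp1 (GGGCGG).
Lcn2: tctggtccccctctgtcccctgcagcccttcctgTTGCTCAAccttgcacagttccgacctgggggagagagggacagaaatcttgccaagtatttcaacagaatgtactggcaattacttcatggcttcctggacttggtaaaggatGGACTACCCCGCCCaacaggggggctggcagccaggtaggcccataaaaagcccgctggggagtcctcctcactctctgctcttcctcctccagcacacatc
Slc22a17: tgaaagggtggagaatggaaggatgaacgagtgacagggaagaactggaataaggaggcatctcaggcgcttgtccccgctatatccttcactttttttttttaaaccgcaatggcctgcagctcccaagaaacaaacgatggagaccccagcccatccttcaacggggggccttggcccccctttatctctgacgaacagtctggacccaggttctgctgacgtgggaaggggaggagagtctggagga
Bdh2: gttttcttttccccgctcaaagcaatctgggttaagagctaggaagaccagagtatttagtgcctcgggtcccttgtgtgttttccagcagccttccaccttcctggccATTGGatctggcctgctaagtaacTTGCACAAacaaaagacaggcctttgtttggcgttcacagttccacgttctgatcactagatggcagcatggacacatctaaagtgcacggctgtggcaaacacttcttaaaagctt
The Lcn2 stretch (chr2:32387740-32387989, minus strand) held a C/EBP match, TTGCTCAA, that begins 216 bases before the start, an NF-kB match on the opposite strand, read here as GGACTACCCC, 102 bases before it, and an Sp1 match that shares bases with the latter. The Bdh2 stretch (chr3:135280971-135281220, plus strand) held a CCAAT box on the opposite strand 141 bases before the start and a C/EBP match, TTGCACAA, 117 bases before it. The Slc22a17 stretch (chr14:54913133-54913382, minus strand) held none of the 6. Of 32851 RefSeq promoters searched over the same 250 bases, 9.6% held the C/EBP pattern, 45.8% the NF-kB pattern, 32.7% the Sp1 pattern, 33.8% the CCAAT box, 12.4% the TATA box and 7.0% the STAT pattern. These are letter matches and not measured sites. Entries existed for 7 of the 8 genes (not Orm1). Of the other 4 genes, Lrp2 held 3 NF-kB and 2 Sp1 matches, and Apod and Ptgds 1 NF-kB match each. Rbp4, with 2 annotated starts, held 3 NF-kB, 2 Sp1 and 1 C/EBP match and a TATA box before one start, and a CCAAT box before the other.

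Values are signals made by the authors with RMA, read here as log2 because of their range, the base being unstated. The arrays fell into 2 sets by the spread of their values: array set 1 (replicates 1 and 2 of both unstimulated groups, interquartile range below 2) and array set 2 (replicate 3 of both unstimulated groups and all 4 fMLP arrays, above 2). Correlations between arrays over all probe sets were 0.75 to 0.813 across the sets. Array set was therefore a term in every fit, and genotype is balanced over it. Set 1 holds no array of stimulated cells. fMLP knockout replicate 2 stood apart (correlation 0.935 to 0.949 with the rest of set 2, against 0.978 to 0.996 among the rest), with high neuron genes, and values are given with and without it. The label female was borne by all samples, yet the RNA of the inactive X chromosome, Xist, was at 6.88 to 7.82 on the 6 unstimulated arrays and at 9.83 to 11.12 on the 4 fMLP arrays. The Y-linked gene Eif2s3y was at 9.83 and 9.59 on unstimulated replicate 3 of each genotype and at 5.36 to 7.22 on the other 8 arrays, so sex and stimulation cannot be told apart in the fMLP comparisons. Neutrophil markers (14 of 16 measured, among them S100a8, Ly6g and Csf3r) had a median percentile of 98.7 to 99.7 among the probe sets of every array.

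Lcn2 was far lower in the knockout and was the 1 gene of the 8 to pass the test between genotypes. Unstimulated wild type cells gave 13.88, 13.93 and 14.02 (log2 signal), and unstimulated knockout cells gave 9.20, 8.36 and 8.09. With fMLP the wild type arrays gave 14.13 and 14.16 and the knockout arrays 8.42 and 9.60. Every knockout array lay below every wild type array, with no overlap. On the wild type arrays 22 to 41 of all 35556 probe sets were brighter than Lcn2, and on the knockout arrays 6835 to 17685. Tests are limma's moderated test over all 21789 probe sets, two-sided, with Benjamini-Hochberg adjustment over all of them, and a probe set is called below 0.05.

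Lcn2 fell by 5.39 on the log2 scale in unstimulated cells (SE 0.33, 95% confidence interval -6.16 to -4.62, n = 3 and 3, limma adjusted p = 0.00449), a 42-fold ratio of signals. After fMLP the difference was -5.14 (SE 0.41, n = 2 and 2, limma adjusted p = 0.0314), a 35.2-fold ratio of signals. Since background is not separated from the knockout signal, these are ratios of signal and not measures of transcript. Without replicate 2 of the fMLP knockout cells these were -5.39 (limma adjusted p = 3.62e-06) and -5.73 (limma adjusted p = 0.000107). In each of the 2 comparisons Lcn2 was the only probe set called of 21789, 0.00459% of those tested, so 1 of the 8 genes was called. In all, 201 probe sets without fMLP and 1644 with it had an unadjusted p below 0.05, of which 1 and 2 were among the 8. Within set 1 the unstimulated difference was -5.12 and within set 2 it was -5.92. Both calls depended on the arrays used, while the size of the difference moved little. The unstimulated call was lost (adjusted p 0.0837 to 0.104, differences -5.48 to -5.12) without any 1 of the wild type replicates 1, 2 and 3 or the knockout replicates 2 and 3. The fMLP call was lost without any 1 of these 5 unstimulated arrays (0.103 to 0.231) and without fMLP wild type replicate 1 (0.437) or 2 (0.732), and it was lost with the replicate number as a block in place of the array set (adjusted p = 0.151), at differences of -5.15 to -5.12. Averaged over stimulation the Lcn2 difference was -5.26 (SE 0.26, limma adjusted p = 0.000856; without fMLP knockout replicate 2, -5.56, limma adjusted p = 9.56e-07), the 1 call among 0.00459% of probe sets called.

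The knockout level of Lcn2 was not uniform. The 5 knockout arrays spanned 8.09 to 9.60, against 13.88 to 14.16 over the 5 wild type arrays. The 2 highest were unstimulated knockout replicate 1 and fMLP knockout replicate 2, the array with the neuron genes. Since the labels do not place the deletion, it is unknown which probes still match the allele, and the remaining signal cannot be assigned to transcript or to background. The order of the 4 group means was unstimulated knockout (8.55 ± 0.58, SD, n = 3), fMLP knockout (9.01 ± 0.84, SD, n = 2), unstimulated wild type (13.94 ± 0.07, SD, n = 3) and fMLP wild type (14.14 ± 0.02, SD, n = 2), and within each genotype the neighbours did not differ by the test. The unstimulated means hold arrays of both sets and the fMLP means only those of set 2.

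**Figure D1:**
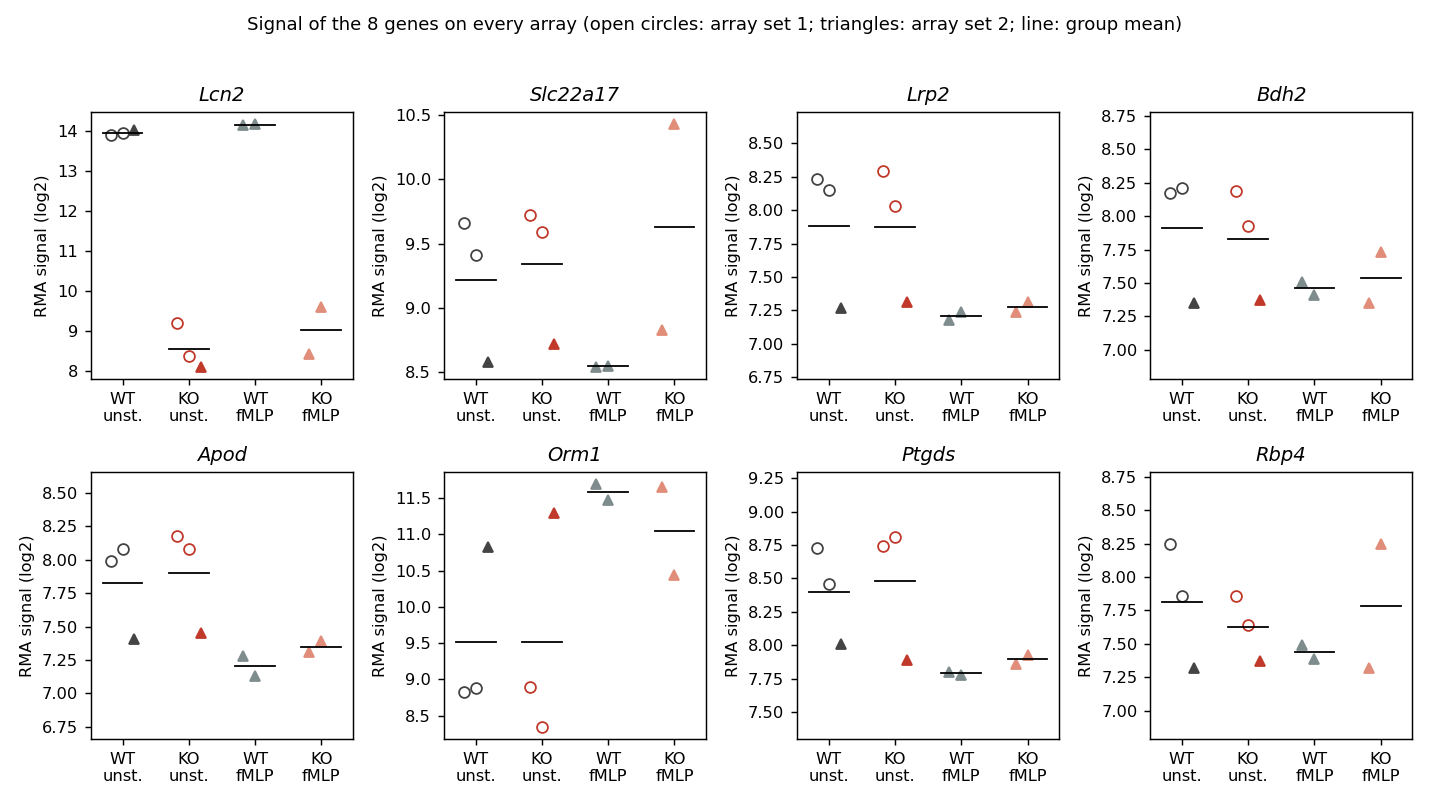
RMA signal (log2) of each of the 8 genes on each of the 10 arrays, by group (WT, wild type; KO, Lcn2 knockout; unst., unstimulated), with open circles for array set 1, triangles for array set 2 and a line at the group mean; each panel has its own axis, which does not start at 0. Lcn2 separates by genotype. Among the unstimulated arrays the other 7 genes differ between the array sets, with Orm1 higher in set 2 and the other 6 lower, and fMLP knockout replicate 2 (the upper of the 2 points in the last group of Slc22a17 and Rbp4) reaches 10.43 and 8.25.

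The receptor gene Slc22a17 did not pass in any genotype comparison over all 10 arrays. Its signal was 9.66, 9.41 and 8.58 in unstimulated wild type cells and 9.72, 9.59 and 8.72 in unstimulated knockout cells. It was 8.54 and 8.55 in fMLP wild type cells and 8.83 and 10.43 in fMLP knockout cells. The unstimulated groups overlapped, and in each the array of set 2 was the lowest. It is undecided whether the replicate numbers pair the samples. Within each of the 3 numbers the unstimulated knockout array was the higher for Apod (by 0.19, 0 after rounding, and 0.04). The same held for Slc22a17, by 0.06, 0.19 and 0.14. The unstimulated difference, knockout minus wild type, was 0.13 (95% confidence interval -0.65 to 0.91, limma adjusted p = 1). Without fMLP knockout replicate 2, whose spread enters the shared error, the interval narrowed to -0.07 to 0.33, and the differences within set 1 and within set 2 were 0.13 and 0.14.

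After fMLP both knockout arrays of Slc22a17 lay above both wild type arrays, by a fitted 1.08 (SE 0.42, 95% confidence interval 0.13 to 2.04, unadjusted p = 0.0311 and adjusted p = 0.472 by limma). The size of that difference came from 1 array. Without fMLP knockout replicate 2 it was 0.28 (95% confidence interval -0.02 to 0.59), and with that array as the only fMLP knockout array it was 1.88. Both fits leave 1 fMLP knockout array and take the spread from the other groups, as if the lone array varied like them. On that array the neuron marker Snap25 stood at 13.43, against 7.36 to 8.78 on the other 9, and Slc22a17 is expressed in brain. The part of the neuron genes in the Slc22a17 value was not tested. Averaged over stimulation the difference was 0.61 (unadjusted p = 0.0533, adjusted p = 0.583 by limma) on all arrays and 0.21 (95% confidence interval 0.02 to 0.39, unadjusted p = 0.0298, adjusted p = 1) without that array, when 332 probe sets had a smaller p. The group means ran from fMLP wild type (8.54 ± 0.01, SD, n = 2) through unstimulated wild type (9.21 ± 0.57, SD, n = 3) and unstimulated knockout (9.34 ± 0.55, SD, n = 3) to fMLP knockout (9.63 ± 1.13, SD, n = 2), and no neighbours differed by the test. These means are not freed of the array set, whose difference among unstimulated arrays was -0.95 (set 2 minus set 1). Within set 2 the wild type fMLP arrays differed from the unstimulated one by only -0.03.

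Lrp2, the megalin gene, had nearly the same signal in both genotypes. Wild type cells gave 8.23, 8.15 and 7.27 unstimulated and 7.18 and 7.24 after fMLP. Knockout cells gave 8.29, 8.03 and 7.31 unstimulated and 7.24 and 7.31 after fMLP. The 4 arrays of set 1 were all above 8 and the 6 of set 2 all between 7.18 and 7.31, whatever the genotype. The knockout difference was -0.01 (95% confidence interval -0.23 to 0.21) without fMLP and 0.06 (-0.20 to 0.33) with it, so at these intervals a difference of more than 0.33 in either direction lies outside. After fMLP the knockout and wild type arrays of Lrp2 did not overlap, but neither did those of 41.3% of all probe sets in that comparison of 2 arrays with 2, or those of 5 of the 8 genes (Lcn2, Slc22a17, Lrp2, Apod and Ptgds).

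The siderophore enzyme gene Bdh2 did not pass in any comparison of genotypes. Its signal was 8.17, 8.21 and 7.35 in unstimulated wild type cells and 8.19, 7.93 and 7.37 in unstimulated knockout cells. With fMLP it reached 7.51 and 7.41 in wild type and 7.35 and 7.73 in knockout cells. Knockout and wild type arrays overlapped in both conditions. The difference was -0.08 (95% confidence interval -0.37 to 0.20, limma adjusted p = 1) without fMLP and 0.08 (-0.26 to 0.43, limma adjusted p = 0.815) with it. Without fMLP knockout replicate 2, which had the highest Bdh2 signal of the 6 arrays of set 2, the latter was -0.11 (-0.42 to 0.21).

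Orm1 had the widest spread of the 4 other lipocalins, and it followed the array set and not the genotype. Unstimulated wild type cells gave 8.83, 8.88 and 10.83, and unstimulated knockout cells gave 8.90, 8.34 and 11.29. After fMLP the wild type arrays gave 11.69 and 11.48, and the knockout arrays 11.66 and 10.44. Among the unstimulated arrays Orm1 was 2.33 higher in set 2 than in set 1, while the other 7 genes were 0.29 to 0.95 lower in set 2 and the median of all probe sets was 0.33 lower. The unstimulated knockout difference was 0.00 (95% confidence interval -0.71 to 0.71; without fMLP knockout replicate 2, -0.38 to 0.37), made of -0.24 within set 1 and 0.46 within set 2. After fMLP it was -0.54 (-1.41 to 0.33, limma adjusted p = 0.515). On fMLP knockout replicate 2 Orm1 was 1.17 below the mean of the other fMLP arrays. Without that array the difference was 0.07 (-0.49 to 0.63), and with it as the only fMLP knockout array it was -1.14. The close paralogs Orm2 (6.95 to 8.0 over the arrays) and Orm3 (6.17 to 7.30) did not share the pattern of high set 2 signals, though how far the probes tell the 3 copies apart is uncertain.

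Ptgds, Apod and Rbp4 gave small genotype differences that did not pass. Ptgds was at 8.73, 8.46 and 8.01 in unstimulated wild type and 8.74, 8.81 and 7.89 in unstimulated knockout cells, and at 7.80 and 7.78 against 7.86 and 7.93 after fMLP. Its knockout difference was 0.08 (95% confidence interval -0.17 to 0.32) without fMLP and 0.10 (-0.20 to 0.40) with it, and within the sets of the unstimulated arrays it took opposite signs (0.18 in set 1, -0.12 in set 2). Ptgds makes prostaglandin D2, a lipid mediator, and so is both an enzyme and a carrier.

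Apod was at 7.99, 8.08 and 7.41 in unstimulated wild type and 8.18, 8.08 and 7.45 in unstimulated knockout cells, and at 7.28 and 7.13 against 7.31 and 7.39 after fMLP. The knockout difference was 0.07 (95% confidence interval -0.12 to 0.27) and 0.14 (-0.10 to 0.39), with knockout arrays above wild type arrays within set 1 and after fMLP. In set 1, with 2 arrays against 2, this held for 28.7% of all probe sets in either direction, and for 3 of the 8 genes (Lcn2, Apod and Ptgds). Over all 3 unstimulated arrays a group, only Lcn2 of the 8 had groups that did not overlap, against 0.587% of all probe sets.

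Rbp4 was at 8.25, 7.86 and 7.32 in unstimulated wild type and 7.86, 7.64 and 7.37 in unstimulated knockout cells, and at 7.49 and 7.39 against 7.32 and 8.25 after fMLP. The difference was -0.18 (95% confidence interval -0.72 to 0.35) without fMLP and 0.35 (-0.30 to 1.0) with it. The sign after fMLP again came from 1 array. Without fMLP knockout replicate 2 the difference was -0.12 (-0.53 to 0.30), and with that array as the only fMLP knockout array it was 0.82. The spread in both fits is again that of the other groups.

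**Figure D2:**
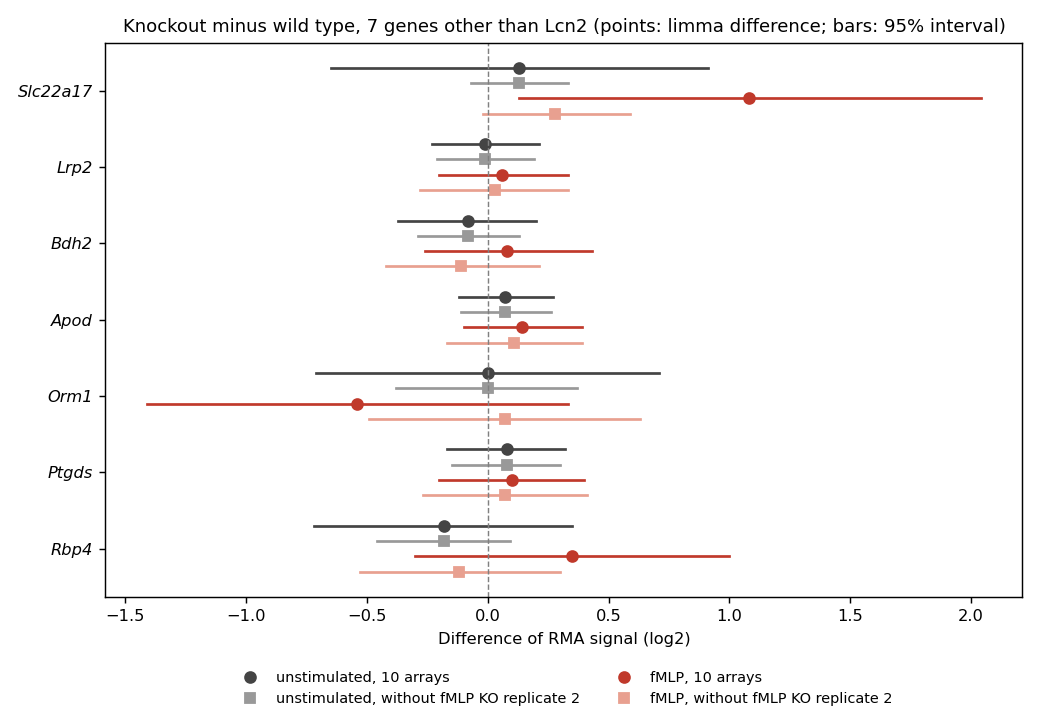
Knockout minus wild type difference of log2 signal (x axis) for the 7 genes other than Lcn2, in unstimulated cells and after fMLP, from all 10 arrays (circles) and without fMLP knockout replicate 2 (squares); bars are 95% confidence intervals of the limma fit. All unstimulated intervals include 0, and the fMLP interval of Slc22a17 from all arrays (0.13 to 2.04) is the only one that does not, moving to -0.02 to 0.59 without that array.

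fMLP knockout replicate 2 decided the largest fMLP values among these genes. Against the mean of the other 3 fMLP arrays it was higher by 1.79 for Slc22a17, 0.85 for Rbp4, 0.31 for Bdh2, 0.15 for Apod, 0.11 for Ptgds and 0.09 for Lrp2, and its difference was -1.17 for Orm1. The value of Lcn2, -2.63, mixes the genotypes. All 12 neuron markers were higher on it, by a median of 3.57, and their mean signal was 10.73 against 7.31 to 7.46 on the other 5 arrays of set 2. The mean of the glia and choroid plexus markers was 8.51, above the 7.75 to 7.84 of those arrays, and 9 of 11 exceeded their mean over the other 3 fMLP arrays (median difference 0.42). The mean of the neutrophil markers was 12.76, below the 13.26 to 13.49 of those arrays, and 0 of 14 were higher, with a median of -0.55. The mean of the liver markers was 7.53 (7.46 to 7.56 on those arrays) and that of the stroma and fat markers 7.65 (7.60 to 7.70). The part of any of these lists in the values of Slc22a17, Rbp4 and Orm1 was not tested. In such bulk samples fewer cells of a type and less RNA per cell cannot be told apart.

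**Figure D3:**
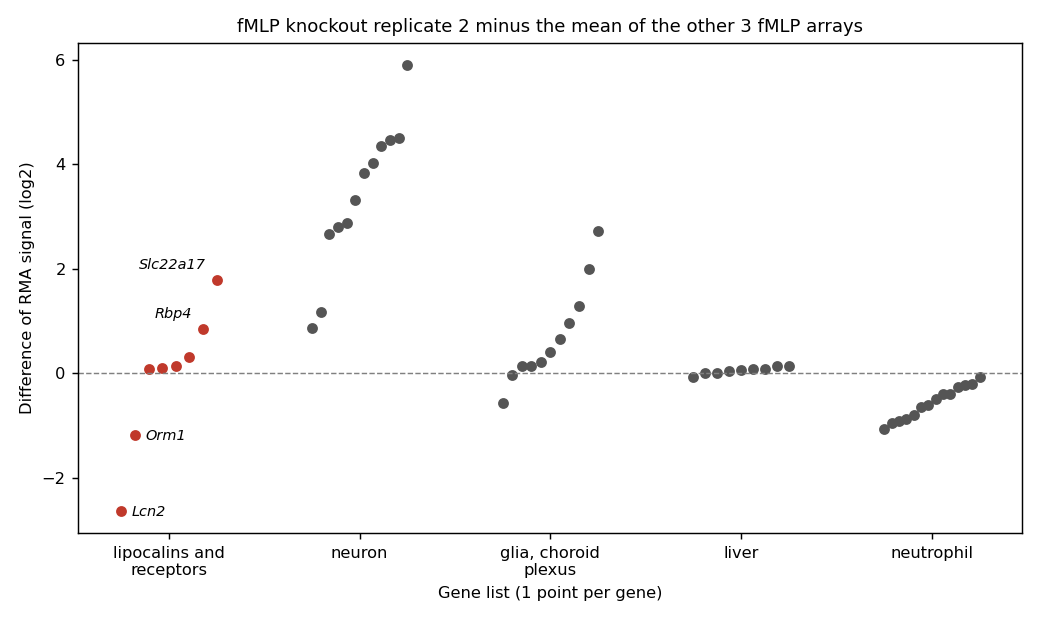
Log2 signal of fMLP knockout replicate 2 minus the mean of the other 3 fMLP arrays (y axis), 1 point per gene, for the 8 genes and for 4 lists of cell type markers. The 12 neuron genes all lie above 0 and the 14 neutrophil genes all below, while Slc22a17 (1.79) and Rbp4 (0.85) lie above and Orm1 (-1.17) below.

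None of the 8 genes passed for fMLP in either genotype, where 0.0367% of probe sets (8 of 21789) were called in wild type and 0.0367% (8) in knockout cells. Averaged over genotype 0.243% were called, and again none of the 8. Lcn2 differed by 0.39 (95% confidence interval -0.62 to 1.41) in wild type cells (0.13 when only set 2 arrays are compared). In knockout cells it differed by 0.65 (-0.37 to 1.66), or 0.06 without fMLP knockout replicate 2. When only set 2 arrays are compared, these knockout values were 0.91 and 0.32. On all arrays the smallest p among the 8 was that of Apod in wild type cells (-0.18, unadjusted p = 0.145, adjusted p = 0.842 by limma) and averaged over genotype (-0.15, unadjusted p = 0.141, adjusted p = 0.56), and that of Slc22a17 in knockout cells (0.92, unadjusted p = 0.0756, adjusted p = 0.434). The Orm1 difference was 0.52 in wild type (-0.42 to 1.46, limma adjusted p = 0.916) and -0.01 in knockout cells (-0.95 to 0.93). Without fMLP knockout replicate 2 Orm1 had the smallest p of the 8 in all 3 of these comparisons, at 0.52 in wild type, 0.60 in knockout and 0.56 averaged over genotype (for the last, 0.13 to 0.99, unadjusted p = 0.0157, adjusted p = 0.133 by limma).

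These fMLP values depend on the array set. Fitted without the array set, Orm1 differed by 1.81 averaged over genotype (limma adjusted p = 0.138), and Lrp2, Apod and Ptgds by -0.64, -0.58 and -0.60 (limma adjusted p = 0.138 each). With the replicate number as a block in place of the array set, the fMLP arrays of set 2 are in effect set against unstimulated arrays of set 1. Then 18047 of 21789 probe sets were called, among them Orm1 at 2.58, Lrp2 at -0.93, Ptgds at -0.84, Apod at -0.80 and Bdh2 at -0.63. Within set 2, 1 of the 8 genes (Apod) had fMLP arrays that did not overlap the unstimulated arrays, against 30.0% of all probe sets. Without fMLP knockout replicate 2 there were 4 (Lrp2, Apod, Orm1 and Ptgds) against 50.8%. Without that array 2.68% of probe sets were called for fMLP in wild type cells, 1.06% in knockout cells and 5.76% averaged over genotype, and none of the 8 was among them.

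The fMLP response did not differ between genotypes for any of the 8 by the test of the interaction, which called 0 probe sets (0%) by limma, with 420 at an unadjusted p below 0.05 and none of the 8 among them. The largest interaction of the 8 was that of Slc22a17, 0.95 (95% confidence interval -0.28 to 2.19, limma adjusted p = 0.834), and it was 0.15 (-0.21 to 0.52, limma adjusted p = 1) without fMLP knockout replicate 2. Orm1 gave -0.53 and Rbp4 0.53, or 0.08 and 0.07 without that array, and Lcn2 0.25 and -0.34. With fMLP knockout replicate 2 as the only array of its group, the interaction was 1.75 for Slc22a17, 1.0 for Rbp4 and -1.14 for Orm1.

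**Figure D4:**
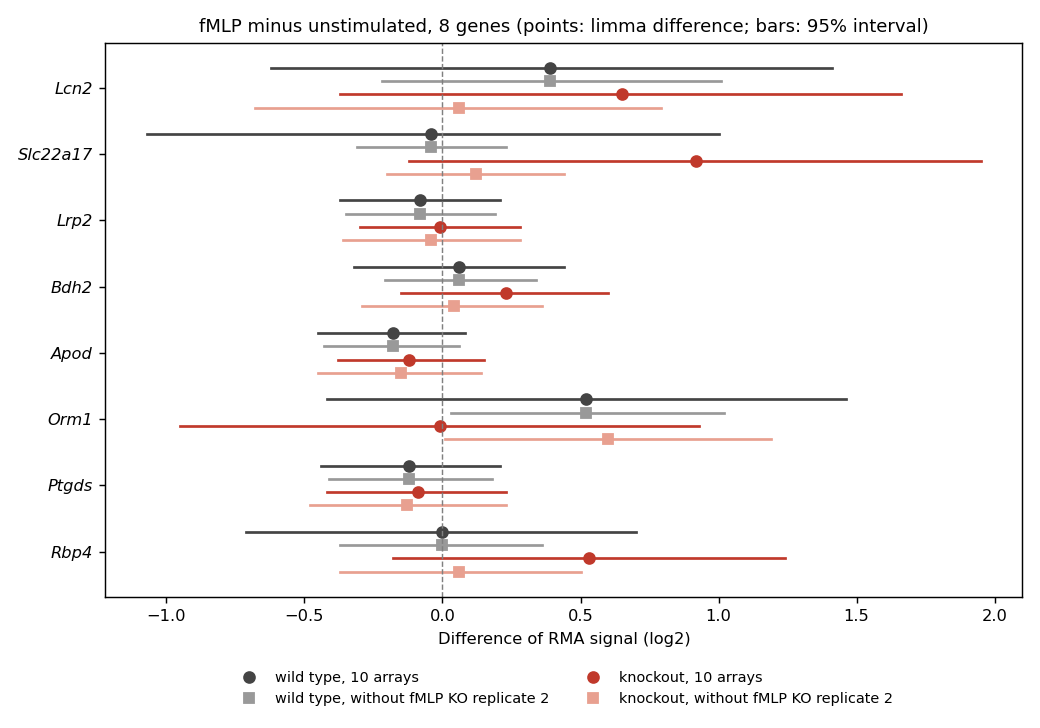
fMLP minus unstimulated difference of log2 signal (x axis) for the 8 genes in wild type and knockout cells, fitted with the array set as a term, from all 10 arrays (circles) and without fMLP knockout replicate 2 (squares); bars are 95% confidence intervals. From all arrays every interval includes 0. Without that array the 2 intervals of Orm1 (0.03 to 1.02 and 0.01 to 1.19) lie just above 0, with adjusted p of 0.288 and 0.384.

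Whether these genes were above background bears on how much a lack of difference can show. The files hold no detection calls, so the 1023 single-gene probe sets of olfactory receptors, which serve smell in the nose, were used as a rough scale of background on each array. Probe sets differ in brightness for reasons other than expression, and the scale tells nothing of absolute level. Slc22a17 was brighter than all of them only on fMLP knockout replicate 2, and than 95.9 to 99.3% on the other arrays. Orm1 was brighter than all of them on the 6 arrays of set 2 and than 70.3 to 88.5% on set 1. Lrp2 (59.0 to 89.1%), Bdh2 (55.6 to 95.1%), Apod (61.1 to 90.4%), Ptgds (76.7 to 96.5%) and Rbp4 (45.6 to 97.9%) lay within the range of the olfactory receptor probe sets on every array. For these 5 genes a signal above background was not shown. By the same measure it was not shown for Orm1 on set 1. Slc22a17 lay near the top of the range but within it, except on fMLP knockout replicate 2. Apod was also the 1 gene of the 8 that would not have passed a filter asking for at least 2 arrays above the median of all values (8.18), while 7 passed. Lcn2 on the knockout arrays was brighter than 71.0 to 99.9%.

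**Figure D5:**
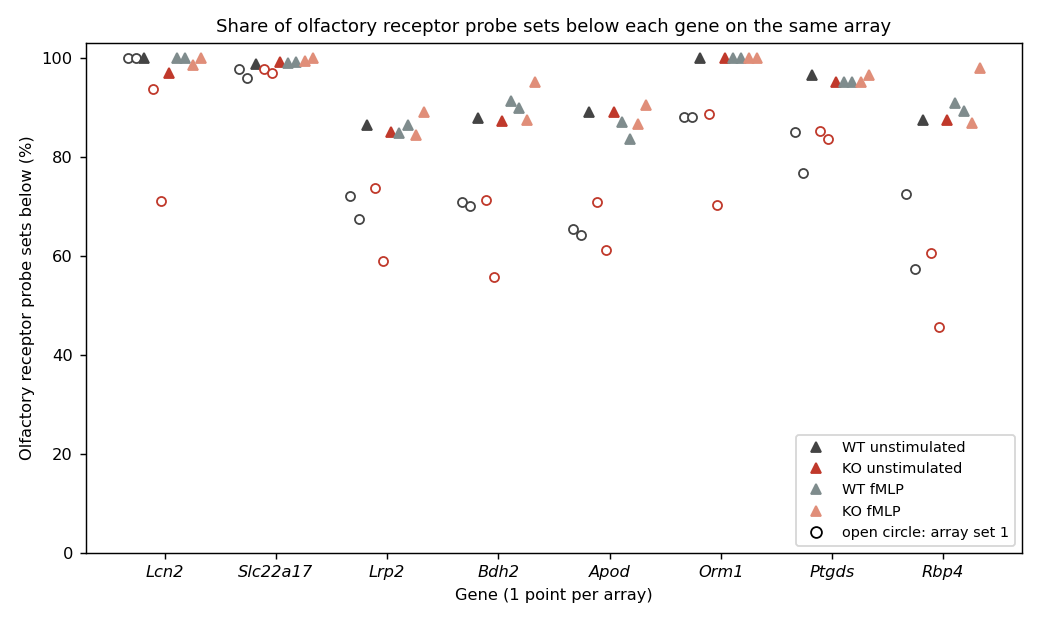
Share of the 1023 olfactory receptor probe sets (%, y axis) that were dimmer than each of the 8 genes on the same array, 1 point per array, with open circles for array set 1 and triangles for array set 2. Lcn2 on wild type arrays, Slc22a17 on all arrays (95.9 to 100%) and Orm1 on set 2 lie at the top, and the other 5 genes lie lower, above all on set 1.

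The rest of the lipocalin family and of the pathways around lipocalin 2 likewise held no gene other than Lcn2 that passed between genotypes. Of 26 other lipocalin genes, 20 had a probe set, with a median percentile of 26.1 to 34.7 over the arrays. They were not placed on the scale of the olfactory receptor probe sets, so a signal above background was not shown for them. None was called in the unstimulated comparison (median difference 0.00, against 0.02 over all probe sets), and the largest differences were Orm2 at -0.24 and the odorant-binding protein gene Obp1a at 0.15. None was called after fMLP either (median 0.03), where Lcn3 stood at 0.27 and Lcn4 at -0.23. Of 20 genes for lipocalin receptors and their endocytic partners 18 were measured and none was called (median 0.06 unstimulated). The largest unstimulated differences were those of the endocytic adaptor gene Dab2 (0.16) and of Cubn (0.15), which encodes the megalin partner cubilin. After fMLP they were Vldlr (0.74), a receptor of the LDL receptor family, and Lmbr1l (-0.43), a lipocalin receptor. Without fMLP knockout replicate 2 they were Stra6l (0.23) and Dab2 (0.19).

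Of 17 genes for siderophore and iron handling 16 were measured and none was called between genotypes, with a median of -0.04 unstimulated and -0.19 after fMLP (-0.08 without fMLP knockout replicate 2, against 0.01 over all probe sets). Ltf, the iron-binding lactoferrin of the same granules, differed by -0.32 and Tfrc, the transferrin receptor, by -0.18 in unstimulated cells. Ltf was at 12.96, 12.68 and 13.92 on unstimulated wild type replicates 1, 2 and 3. On the knockout replicates it was at 12.69, 11.94 and 13.98, so it was not lower in set 2. After fMLP the iron exporter gene Slc40a1 differed by -0.72 (unadjusted p = 0.045, adjusted p = 0.472 by limma) and the heme-degrading Hmox1 by -0.60. For fMLP averaged over genotype, and without fMLP knockout replicate 2, Hmox1 rose by 0.57 (limma adjusted p = 0.0218) and the transferrin gene Trf rose by 0.54 (limma adjusted p = 0.0385), while none of the 16 was called on all arrays. These were 2 of the 16 genes, in a fit that called 5.76% of all probe sets. In the same fit Lrp1, another endocytic receptor of the family of Lrp2, fell by 0.50 (limma adjusted p = 0.0253), against -0.37 (limma adjusted p = 0.355) on all arrays. It was the 1 called of the 18 measured genes for lipocalin receptors and partners, near the share over all probe sets. Markers of other marrow cells differed along with these 3 genes: without fMLP knockout replicate 2, 5 of 10 monocyte and macrophage markers and 7 of 10 eosinophil and basophil markers were called lower with fMLP, 5 of 8 B and plasma cell markers higher and 1 lower (Jchain, -2.10), and 5 of 9 T and NK cell markers and 1 of 5 erythroid markers (Klf1, 0.91) higher. These counts too stand beside 5.76% of all probe sets called in that fit. The part of these markers in the values of Hmox1, Trf and Lrp1 was not tested.

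Of 10 genes for transcription factors that act on Lcn2, 8 were measured and none was called between genotypes. All 8 were lower in unstimulated knockout cells, by a median of -0.12, led by Cebpb (-0.27) and Cebpd (-0.20), which encode C/EBP factors. After fMLP all 8 were lower, by a median of -0.46, and without fMLP knockout replicate 2 there were 7 lower, by a median of -0.13. The largest fMLP differences on all arrays were Nfkbiz (-0.62) and Cebpd (-0.60), each at limma adjusted p = 0.472. The 14 neutrophil markers had medians of -0.15, -0.33 and -0.09 in the same 3 comparisons, none of them was called, and their part in the values of the factors was not tested. For fMLP averaged over genotype, Nfkbiz, an NF-kB cofactor needed for Lcn2 induction, differed by 0.58 (limma adjusted p = 0.256) on all arrays, and rose by 0.72 (limma adjusted p = 0.0212) without fMLP knockout replicate 2. It was the 1 of the 8 called in the latter fit, where 5.76% of all probe sets were called. Of 9 genes for the ligands of the other lipocalins (prostaglandin and retinoid enzymes and carriers) 7 were measured and none was called (median 0.02 unstimulated). The prostaglandin synthase gene Ptgs2 differed by 0.91 with fMLP (limma adjusted p = 0.432), and Aldh1a2 and Lrat, of retinoid metabolism, by -0.16 and 0.11 between unstimulated genotypes. Of 9 secondary granule genes, Lcn2 was the 1 called. All 9 were lower in unstimulated knockout cells, by a median of -0.25, the next largest being Chil3 at -0.41. In the same comparison 13 of the 14 neutrophil markers were lower, by a median of -0.15. The part of such a shift in the granule values was not tested.

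Likeness to each of the 8 genes was measured as Pearson's correlation over the 10 arrays after the mean of each array set was removed, and the arrays share sets, groups and fMLP knockout replicate 2. The genes most like Lcn2 were Mcfd2 (r = 0.917), Mrpl23 (0.845) and Cers3 (0.837), with 0.916, 0.84 and 0.84 over the 9 arrays without fMLP knockout replicate 2. Their unstimulated knockout differences were small beside the -5.39 of Lcn2, at -0.06, -0.7 and -0.06. The genes most like Slc22a17 were Atl1 (0.997), Tnc (0.996) and Slc8a2 (0.996), which fMLP knockout replicate 2 held 2.07, 0.91 and 1.44 above the other fMLP arrays, and over 9 arrays they gave 0.934, 0.911 and 0.89. For Rbp4 they were Mapre2 (0.986), Igfbp3 (0.983) and Chic1 (0.981), for Bdh2 Icam5 (0.957), Guk1 (0.951) and Nefh (0.945), and for Orm1 Zadh2 (0.983), Mospd3 (0.967) and Sfr1 (0.966). On fMLP knockout replicate 2 these too stood apart from the other fMLP arrays, by 0.9, 0.56 and 0.71, by 0.86, 0.51 and 0.39, and by -0.57, -0.49 and -0.98. Over 9 arrays they gave 0.95, 0.949 and 0.921, then 0.91, 0.881 and 0.88, and then 0.971, 0.933 and 0.946. Shd (0.975), Dock6 (0.974) and Gm5149 (0.969) were most like Lrp2, Klk1b27 (0.936), Edn1 (0.928) and Acat3 (0.92) most like Ptgds, and Car14 (0.945), Olfr545 (0.942) and 4930544M13Rik (0.939) most like Apod.

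The genes beside Lcn2 on chromosome 2 did not share its difference. The 5 nearest with a probe set on each side (Golga2, Dnm1, Mir199b, Ciz1 and 1110008P14Rik on one side, and Ptges2, Slc25a25, Naif1, Fam102a and Dpm2 on the other) differed between unstimulated genotypes by -0.05 to 0.12, and none was called. After fMLP the largest was Dnm1, which encodes the dynamin of nerve terminals, at 1.36 (limma adjusted p = 0.472), and it was -0.01 without fMLP knockout replicate 2.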

How the data were processed

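The authors deposited 1 value per probe set and array, made with RMA in Affymetrix Expression Console per the submitters' processing notes. That method corrects background, equalises the distributions of arrays run together and sums up the probes of a set. The deposited values are taken as log2, since the base is not given in the sources used here, and the number of RMA runs is not stated either. Arrays have no read depth, so their number limits the precision, and exact permutation of 3 arrays against 3 cannot give p below 0.1.

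Of 35556 probe sets, 21789 name 1 gene, 1621 several and 12146 none, and the 21789 were tested with no filter on low values. limma (version 3.58.1, R version 4.3.3) fitted a coefficient per group and the array set (5 residual degrees of freedom, median residual SD 0.154; 4 and 0.115 without fMLP knockout replicate 2). Alternatives were no array set term or a random or replicate block (statmod version 1.5.0), renormalization, centring, a filter on low values, 1 probe set a gene, a variance trend, array weights, 1 array set, and leaving out each array.

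Unstimulated arrays of the same replicate number deviated together (correlations 0.939, 0.924 and 0.987; 0.461 within set 1), and fMLP arrays little (0.062). The 3 high values cannot decide whether the numbers pair the samples. Replicate 3 is the array of set 2 in both genotypes, so the array set enters the deviations of all 3 replicates. Only the value within set 1 is free of it. The array set and the replicate number could not be fitted together.

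The genes named were the 8, members of the lists that were called or had the 2 largest differences, the 3 genes most like each of the 8, and the 5 nearest to Lcn2 on each side. Members and lists were chosen with earlier results of these data known. No member of the marker lists for other cells was called between genotypes. With fMLP averaged over genotype, 3 of 10 monocyte and macrophage markers and 6 of 10 eosinophil and basophil markers were called lower, and none of 8 B and plasma cell, 9 T and NK cell or 5 erythroid markers. Over all 10 arrays, 0.243% of all probe sets were called in that comparison.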

Additional observations from a re-analysis of the deposited data

How the results depend on the processing

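Over 21 other settings, Lcn2 stayed lower in the knockout in all 61 fits (-5.92 to -4.54) and was called in 45. Differences of the other 7 genes were called in 28 of 980, all with the replicate block, with array weights (Orm1) or with fMLP knockout replicate 2 as the only array of its group. Unstimulated, the count of probe sets called (1) was 3 with array weights and 0 within set 2 (7 at an unadjusted p below 0.05; Lcn2 -5.92, limma adjusted p = 1), and leaving out 1 array in turn it was 0 to 1, with Lcn2 at -5.71 to -5.12. After fMLP the count (1) was 0 with the replicate block and within set 2 (Lcn2 -5.14 in both, limma adjusted p = 0.151 and 0.721), and 0 to 7767 leaving out 1 array, with Lcn2 at -5.73 to -4.54. Averaged over stimulation the count (1) was 0 within set 2 (Lcn2 -5.53, limma adjusted p = 0.991) and 1 to 6740 leaving out 1 array. For fMLP in wild type cells the count (8) was 0 with no array set term, 22 with the set as a random block, 17382 with the replicate block, 4493 with array weights, 0 within set 2 and 0 to 585 leaving out 1 array. In knockout cells (8) it was 1 with no array set term, 11, 16099, 5, 0 and 0 to 6630 in the same order, with 3 after another quantile normalization and 17 with the variance trend. Averaged over genotype (53) it was 10 with no array set term, 18047 with the replicate block, 1212 with array weights, 0 within set 2 and 0 to 4903 leaving out 1 array. The interaction count (0) was 0 to 5745 leaving out 1 array. The highest counts came without fMLP knockout replicate 1, when replicate 2 stands alone, except that 585 came without either. With the replicate block Bdh2 reversed its fMLP difference to -0.71 in wild type, -0.54 in knockout and -0.63 averaged over genotype, and Orm1 in knockout cells to 2.32; that block sets arrays of set 2 against arrays of set 1. The block changed no other genotype call. Where a fit leaves a group with 1 array, that array is assumed to vary like the other groups.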
